A study of Rattus norvegicus with 8 samples.

Results

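Levels in kidney are described here for 8 of the 758 miRNAs on a rat miRNA array, each known chiefly from another tissue. They were chosen by name, with earlier results of these data known. They are rno-miR-1-5p, rno-miR-133a-3p, rno-miR-133b-3p and rno-miR-499-5p for striated muscle, rno-miR-9a-5p, rno-miR-7a-5p and rno-miR-128-3p for neurons and neuroendocrine cells, and rno-miR-122-5p for liver. All are from Rattus norvegicus and are written below without the prefix. The RNA was taken from right kidneys. The animals were male rats of the inbred strain F344/NSlc, 10 weeks old. In 4 rats the other kidney had been removed (nephrectomized), and 4 rats had a sham operation. One array is taken as 1 rat here, although the labels tie no sample to a named animal. The sample labels put the nephrectomized kidneys at day 2 and the sham kidneys at day 1 after surgery, whereas the design text gives 2 days, so time and operation cannot be told apart if the labels hold.

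A miRNA is a short RNA that lowers the output of messenger RNAs by pairing with them mainly through its seed, the bases 2 to 8 from its 5′ end. The miR-1, miR-133 and miR-499 families are made in skeletal and heart muscle, where miR-1 and miR-133 come from shared primary transcripts and miR-499 lies inside a myosin heavy chain gene. miR-9 and miR-128 are made mostly in brain, miR-7 in neurons, pituitary and pancreatic islets, and miR-122 makes up a large part of the miRNA of hepatocytes. Each precursor gives a 5p and a 3p strand, and one of them is usually kept while the other is degraded.

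The mature sequences below are RefSeq's for the rat assembly GRCr8, which held all 8 of the miRNAs. Capitals mark the seed. They are shown because the array tells these miRNAs apart only by sequence, and because near relatives of 3 of them were on the same array.
miR-1-5p: gCACAUACuucuuuauguaccc
miR-133a-3p: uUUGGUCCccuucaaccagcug
miR-133b-3p: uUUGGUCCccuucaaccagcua
miR-499-5p: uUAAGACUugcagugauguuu
miR-9a-5p: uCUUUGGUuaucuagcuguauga
miR-7a-5p: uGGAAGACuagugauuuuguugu
miR-128-3p: uCACAGUGaaccggucucuuu
miR-122-5p: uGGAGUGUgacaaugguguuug
miR-1-3p: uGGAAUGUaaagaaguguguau
miR-7b: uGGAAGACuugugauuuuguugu
miR-133a-3p and miR-133b-3p share the seed UUGGUCC and differ by G22A, the last base, counted from 1 at the 5′ end with the base of miR-133a-3p first. miR-7b, measured beside miR-7a-5p, has the same seed GGAAGAC and differs from it by A10U. The other miRNAs of the set have a seed of their own. miR-1-3p is the strand of miR-1 that muscle keeps, and miR-1-5p, its partner, has an unrelated seed.

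In GRCr8 the Mir1 and Mir133a1 genes lie on chromosome 18 within the span of Mib1, a protein-coding gene, with the mature miR-1-5p at positions 2160380 to 2160401 and miR-133a-3p at 2157886 to 2157907, both on the minus strand. Mir133b lies on chromosome 9, with miR-133b-3p at 30594629 to 30594650 on the plus strand, inside a long non-coding RNA. Mir499a lies inside Myh7b on chromosome 3, with miR-499-5p at 164570616 to 164570636 on the plus strand. miR-9a-5p is made from 3 loci, of which 1 lies on chromosome 1 and 2 on chromosome 2. miR-7a-5p has a locus inside Hnrnpk on chromosome 17 and another on chromosome 1. miR-128-3p has one inside R3hdm1 on chromosome 13 and one inside Arpp21 on chromosome 8. miR-122-5p comes from chromosome 18, at 61028831 to 61028852 on the plus strand.

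Levels are scanner intensities after background subtraction, averaged over the probes of a miRNA and scaled so that the arrays share the same 75th percentile. A subtracted intensity can be below 0. A miRNA was called detected on an array where the signal of a probe exceeded 3 times its error. On this basis 224 to 230 miRNAs were detected on the nephrectomized arrays and 242 to 253 on the sham arrays. Spots that match no miRNA (negative controls, 414 to 431 usable ones per array) were scaled in the same way. They averaged 2.14 to 2.89 on the nephrectomized arrays and 1.71 to 2.41 on the sham arrays. The brightest 1% of them lay above 7.11 to 8.04 on the nephrectomized and above 5.13 to 6.58 on the sham arrays. Before scaling, the 75th percentile was 155 to 180 on the nephrectomized and 190 to 227 on the sham arrays. Scaling thus raised the control spots more on the nephrectomized arrays. The labelling spike-in signal (log10) was 3.43 to 3.56 on the nephrectomized and 3.61 to 3.63 on the sham arrays. The part of these differences in the number of detected miRNAs was not tested. All arrays were on 1 slide, with the nephrectomized kidneys in slide row 2 and the sham kidneys in slide row 1, so slide row and group cannot be told apart. The RNA was of kidney by its own markers: 6 of 7 miRNAs typical of kidney tubules were detected on all 8 arrays, among them miR-192-5p at 1732 ± 23.2 in nephrectomized and 1630 ± 20.5 in sham kidneys (SD, n = 4 each), and only miR-215 was detected on none.

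Of the 8 miRNAs, 6 were detected on all 8 arrays and 2, miR-133a-3p and miR-122-5p, on none. Of the 758 miRNAs on the array, 214 (28.2%) were detected on all 8 arrays and 494 (65.2%) on none. The set was chosen with earlier results of these data known, so no test was made of these shares. None of the 6 differed between nephrectomized and sham kidneys at an adjusted p under 0.05, and in each of them the values of the groups overlapped. Detection on an array says that a probe gave signal. How much of it came from kidney cells and how much from nerve, vessel wall or other cells of the piece was not tested, and in whole tissue fewer cells of a type and less RNA per cell cannot be told apart.

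**Figure D1:**
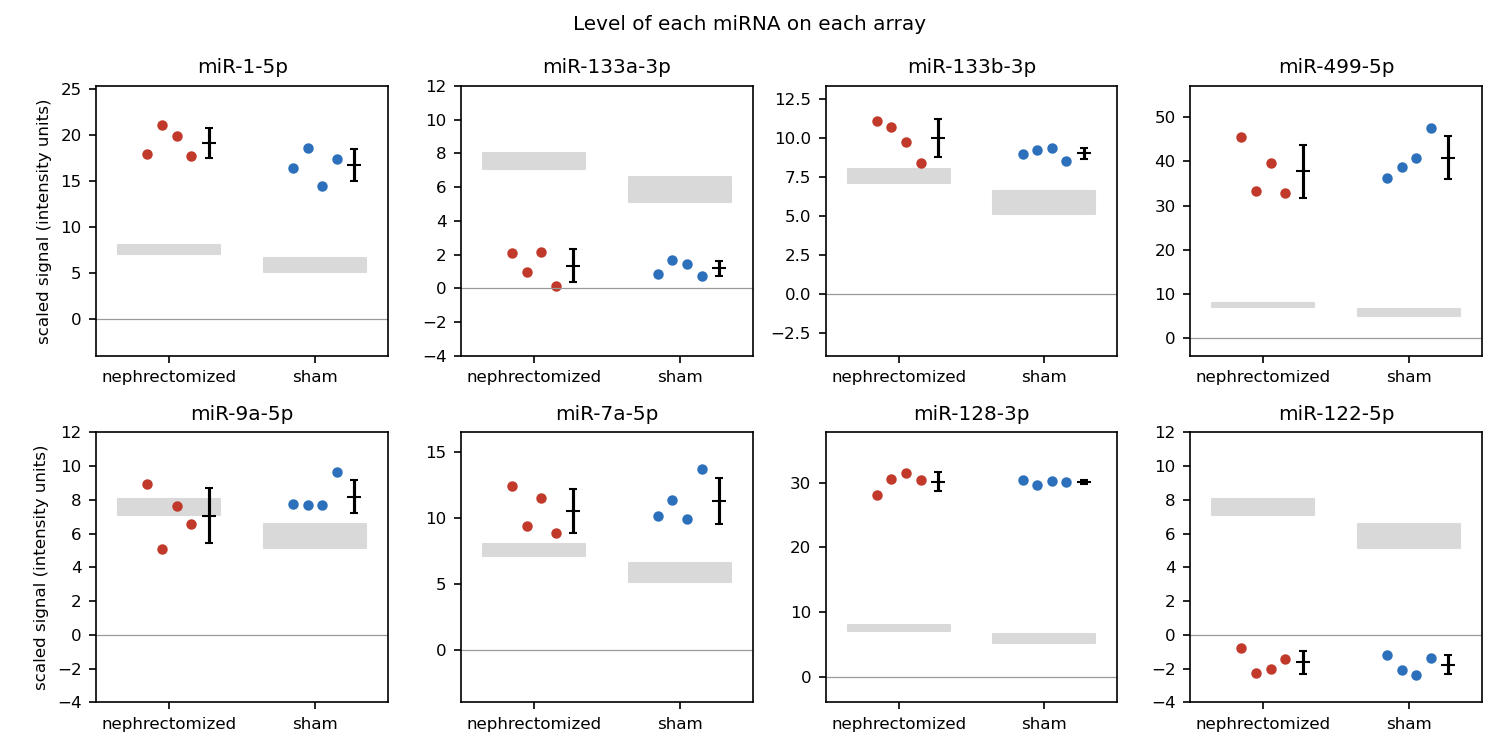
Scaled signal (intensity units) of each miRNA in the 4 nephrectomized and the 4 sham kidneys, 1 point per array, with the mean and SD beside each group and its own axis in each panel. The grey bands span the levels above which the brightest 1% of the negative control spots lay on the arrays of that group (7.11 to 8.04 in nephrectomized and 5.13 to 6.58 in sham arrays); miR-1-5p, miR-133b-3p, miR-499-5p, miR-7a-5p and miR-128-3p lie above the bands, miR-9a-5p runs from below to above its band on the nephrectomized arrays, and miR-133a-3p and miR-122-5p lie below.

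Among the muscle miRNAs, miR-1-5p had a signal of 17.9, 21.1, 19.9 and 17.7 in the nephrectomized kidneys, against 16.4, 18.6, 14.5 and 17.4 in the sham kidneys. The nephrectomized values were higher as a group, but sham kidney 2 lay above nephrectomized kidneys 1 and 4. The mean was 19.1 ± 1.63 in nephrectomized and 16.7 ± 1.74 in sham kidneys (SD, n = 4 each). The log2 difference was 0.20 ± 0.090 (SE), with a 95% interval of -0.011 to 0.40 and an adjusted p of 0.258 in limma. Its p was the lowest of the 6 tested miRNAs of the set and ranked 56 of 238.

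The strand of the same precursor that muscle keeps was not detected. miR-1-3p had a signal of -3.56, -3.67, -3.27 and -3.10 in the nephrectomized kidneys, against -3.38, -2.36, -2.13 and -1.40 in the sham kidneys, all below 0. So on these arrays the strand that is usually degraded gave signal and its partner gave none. The 4 probes of miR-1-5p are antisense copies of 19 to 22 of its bases, the longest covering all of it.

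miR-133b-3p, a regulator of muscle cell proliferation, had a signal of 11.1, 10.7, 9.73 and 8.41 in the nephrectomized kidneys, against 9.00, 9.25, 9.34 and 8.55 in the sham kidneys. Nephrectomized kidneys 1, 2 and 3 lay above every sham kidney and nephrectomized kidney 4 below them all. The log2 difference was 0.14 ± 0.087 (SE), with a 95% interval of -0.062 to 0.34 and an adjusted p of 0.383. The SD of the signal was 1.21 in nephrectomized and 0.352 in sham kidneys.

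miR-133a-3p, which differs from it in 1 base, had a signal of 2.09, 0.979, 2.18 and 0.137 in the nephrectomized kidneys, against 0.873, 1.67, 1.45 and 0.767 in the sham kidneys. Each of these 8 values, the mean of both probes, lay below the mean of the negative control spots on its own array, but the probes stood apart. The 16-base probe gave 3.54, 2.98, 3.70 and 2.54 in the nephrectomized kidneys, against 2.37, 2.87, 4.48 and 2.64 in the sham kidneys, above that mean on 7 of 8 arrays, whereas the 15-base probe lay between -2.26 and 0.660 on all 8. The signal of the 16-base probe reached at most 2.39 times its error, where 3 was needed, and no spot of either probe was well above background. No fold change is given, since neither group was above background. Its probes are the shortest of the set, at 15 and 16 bases, and reach from the 3′ end to base 8 and base 7, so that they take in only the last bases of the seed. The probes of miR-133b-3p, at 18 and 19 bases, match miR-133a-3p at every base they cover except base 22. How far each of the 2 miRNAs gave signal on the probes of the other was not tested.

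miR-499-5p, which in muscle is made together with its myosin host gene, had a signal of 45.4, 33.2, 39.6 and 32.8 in the nephrectomized kidneys, against 36.2, 38.7, 40.8 and 47.5 in the sham kidneys. The groups spanned nearly the same range, with nephrectomized kidney 1 and sham kidney 4 the highest. The log2 difference was -0.12 ± 0.12 (SE), with a 95% interval of -0.41 to 0.17 and an adjusted p of 0.609.

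Among the nerve miRNAs, miR-9a-5p was the nearest to background. Its signal was 8.93, 5.08, 7.66 and 6.60 in the nephrectomized kidneys, against 7.78, 7.67, 7.68 and 9.68 in the sham kidneys. Nephrectomized kidney 2 was the lowest and sham kidney 4 the highest, and the other 3 sham kidneys were nearly equal. The log2 difference was -0.24 ± 0.17 (SE), with a 95% interval of -0.63 to 0.15 and an adjusted p of 0.445. Where detection asked instead that at least 50% of the spots of a probe be well above background, miR-9a-5p was detected on 5 arrays in place of 8, namely in 1 of 4 nephrectomized and 4 of 4 sham kidneys. Of the 8 spots of its 19-base probe per array, 6, 1, 0 and 2 were well above background in the nephrectomized kidneys, against 6, 7, 7 and 8 in the sham kidneys. This split was not tested. The well above background flag was set before scaling, where the 75th percentile was 155 to 180 on the nephrectomized and 190 to 227 on the sham arrays. The part of this in the split was not tested either. The other 7 miRNAs had the same number of arrays under both rules.

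miR-7a-5p, abundant in endocrine cells and neurons, had a signal of 12.4, 9.39, 11.5 and 8.82 in the nephrectomized kidneys, against 10.2, 11.4, 9.89 and 13.7 in the sham kidneys. Sham kidney 4 and nephrectomized kidney 1 were again the highest. The log2 difference was -0.10 ± 0.14 (SE), with a 95% interval of -0.43 to 0.22 and an adjusted p of 0.701.

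miR-128-3p, a brain miRNA with a broader low expression elsewhere, had a signal of 28.0, 30.6, 31.5 and 30.5 in the nephrectomized kidneys, against 30.4, 29.6, 30.2 and 30.2 in the sham kidneys. It was the steadiest of the 6: the mean was 30.1 ± 1.48 in nephrectomized and 30.1 ± 0.331 in sham kidneys (SD, n = 4 each). The log2 difference was 0.00045 ± 0.043 (SE), with a 95% interval of -0.098 to 0.099 and an adjusted p of 0.994.

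miR-122-5p, the hepatocyte miRNA, had a signal of -0.752, -2.27, -2.05 and -1.42 in the nephrectomized kidneys, against -1.21, -2.05, -2.40 and -1.35 in the sham kidneys. All 8 values were below 0 and below the mean of the negative control spots, and no fold change is given. miR-122-3p, its partner strand, was also detected on no array.

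Across the set, 3 of the 6 tested miRNAs had a difference above 0 (miR-1-5p, miR-133b-3p and miR-128-3p) and 3 below it (miR-499-5p, miR-9a-5p and miR-7a-5p). Their median log2 difference was -0.052, beside -0.0077 over all 238 tested miRNAs, of which 113 (47.5%) were above 0. At an adjusted p under 0.05 none of the 6 passed, against 0 of 238 (0%) on the array as a whole. At an unadjusted p under 0.05 none of the 6 passed, against 48 of 238 (20.2%), and limma with a variance trend and robust fitting called 7 of 238 after adjustment, none of them among the 6. The groups failed to overlap in 0 of the 6 and in 35 of 238 (14.7%). The 95% interval excluded a 2-fold difference in either direction for 6 of 6, under this scaling and for the mean of the probes. For miR-133b-3p, miR-7a-5p and miR-9a-5p that mean takes in a probe with no spot well above background.

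**Figure D2:**
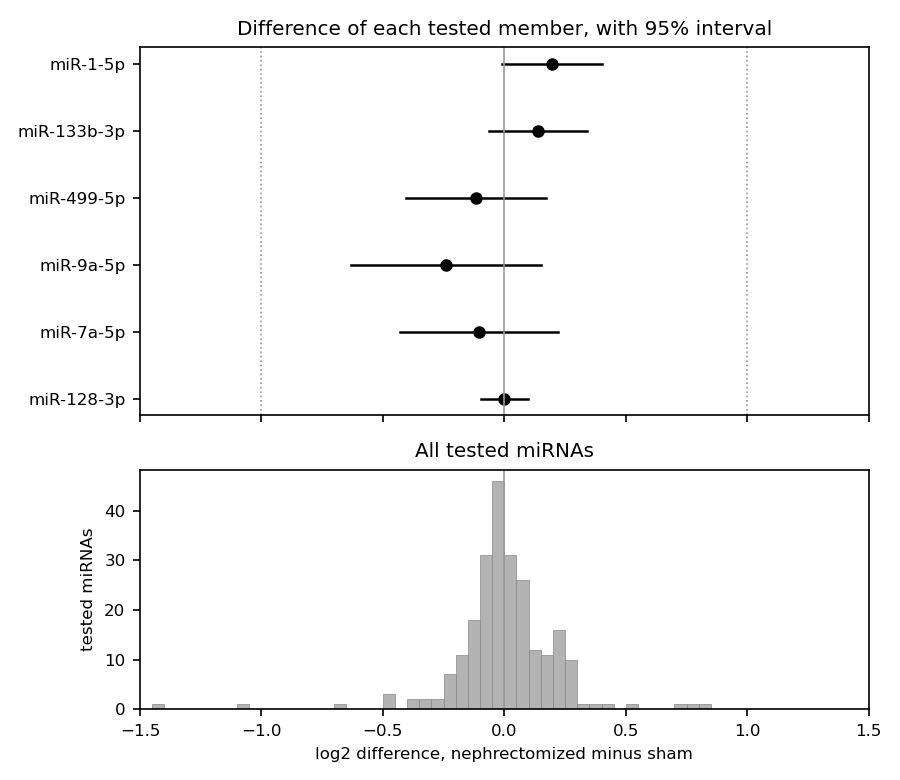
Top, log2 difference (nephrectomized minus sham) of the 6 tested miRNAs with its 95% interval from limma, with dotted lines at a 2-fold difference in either direction; all 6 intervals include 0 and none reaches a dotted line. Bottom, number of the 238 tested miRNAs by log2 difference in bins of equal width, with a median of -0.0077.

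The precision behind these intervals differed widely. The residual SD of the log2 level, the spread among kidneys of the same group, was 0.27 for miR-9a-5p, 0.22 for miR-7a-5p and 0.20 for miR-499-5p, and 90.8%, 89.1% and 85.3% of the tested miRNAs had a smaller one. It was 0.14 for miR-1-5p and 0.13 for miR-133b-3p, and 0.052 for miR-128-3p. Over the 238 tested miRNAs its median was 0.099.

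The probes of a miRNA did not report it equally. Each probe is an antisense copy of its miRNA from the 3′ end, and the probes of a miRNA differ only in how far they reach toward its 5′ end. The 4 probes of miR-1-5p gave nearly the same signal, with means of 18.4, 19.5, 19.3 and 19.3 in nephrectomized and 17.0, 16.8, 16.3 and 16.8 in sham kidneys for 19, 20, 21 and 22 bases. All 4 were higher in nephrectomized kidneys, by log2 0.12, 0.21, 0.25 and 0.21. Of their spots, all but 1 were well above background.

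The other detected miRNAs had 2 probes that differed by a single base, and the longer always gave more signal. For miR-499-5p the 19-base probe gave 55.4 ± 8.40 in nephrectomized and 59.8 ± 6.93 in sham kidneys, and the 18-base probe 20.2 ± 3.69 and 21.8 ± 2.97 in those groups (SD, n = 4 each). The ratio of the probes was 2.76 ± 0.174 in nephrectomized and 2.74 ± 0.163 in sham kidneys, and between 2.57 and 2.99 on every array. Both probes had all spots well above background, and they gave nearly the same difference, -0.11 and -0.12. For miR-128-3p the ratio of the 20-base to the 19-base probe was 1.69 ± 0.0605 in nephrectomized and 1.62 ± 0.0292 in sham kidneys, and the probes differed in sign, at 0.025 and -0.041, both within their errors.

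In the remaining 3 the shorter probe had no spot well above background. The 18-base probe of miR-133b-3p gave 5.06 ± 1.15 in nephrectomized and 4.77 ± 0.588 in sham kidneys, with no spot well above background, whereas the 19-base probe gave 14.9 ± 1.61 and 13.3 ± 0.525, with 25 of 32 and 32 of 32 such spots. The 21-base probe of miR-7a-5p gave 2.44 ± 0.679 in nephrectomized and 3.71 ± 1.02 in sham kidneys with no such spot, and the 22-base probe 18.6 ± 2.85 and 18.9 ± 2.49 with 30 of 32 and 32 of 32. The 18-base probe of miR-9a-5p gave 2.71 ± 1.06 in nephrectomized and 3.66 ± 0.281 in sham kidneys with no such spot, and its 19-base probe 11.4 ± 2.48 and 12.8 ± 1.82 with 9 of 32 and 28 of 32. Detection of these miRNAs thus rested on 1 probe each, and the lowest signal over error of that probe was 3.34 for miR-9a-5p, 4.95 for miR-133b-3p and 5.44 for miR-7a-5p, where 3 was needed.

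The shorter probes of miR-7a-5p and miR-9a-5p were too close to the negative control spots for a difference of their own to be given, yet they enter the mean of the probes. With the longest probe alone the fitted log2 difference was -0.021 for miR-7a-5p (adjusted p = 0.926) and -0.17 for miR-9a-5p (adjusted p = 0.608), against -0.10 and -0.24 with both probes, and neither was called.

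**Figure D3:**
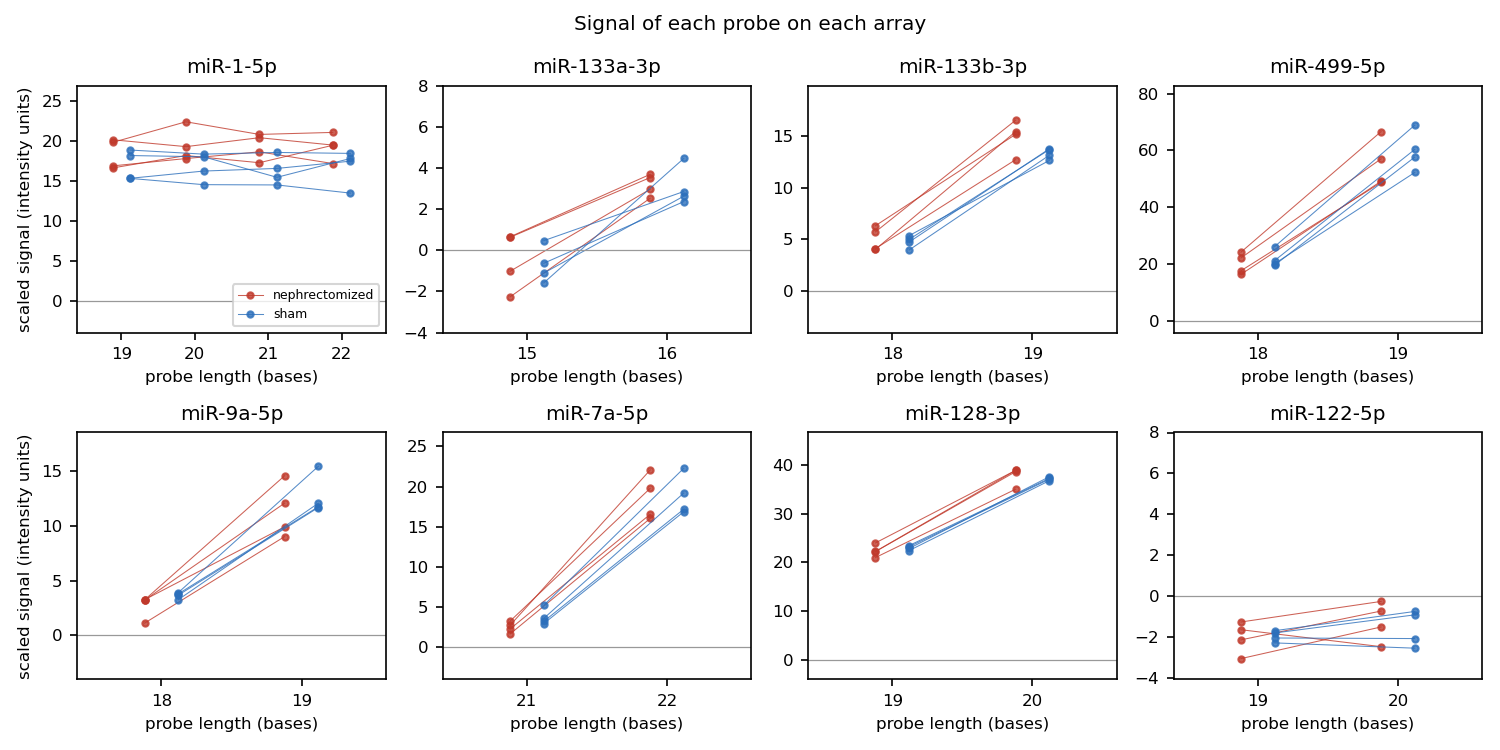
Mean scaled signal (intensity units) of each probe against probe length in bases, 1 point per array and a line joining the probes of the same array, with its own axis in each panel. The 4 probes of miR-1-5p lie at one height, the longer probe gives more in miR-133b-3p, miR-499-5p, miR-9a-5p, miR-7a-5p and miR-128-3p, and both probes of miR-122-5p lie below 0.

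The set was read against 36 other miRNAs of the same 3 tissues on the array, from lists drawn up with earlier results of these data known. Of these, 3 were detected on all 8 arrays, 5 on 1 to 7 and 28 on none. On the whole array 28.2% of miRNAs were detected on all 8 arrays and 65.2% on none. None of the other 10 striated muscle miRNAs was detected on any array: miR-1-3p, both strands of miR-206, miR-208a and miR-208b, and the partner strands miR-133a-5p, miR-133b-5p and miR-499-3p. Their signals summed to between -25.5 and -22.9 in nephrectomized and between -21.2 and -15.0 in sham kidneys.

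Of the 25 other nerve miRNAs, 17 were detected on no array, including miR-124-3p, the most abundant miRNA of neurons, and miR-7b. miR-218a-5p, known from motor neurons, was detected on all 8 arrays, at 210 ± 5.25 in nephrectomized and 208 ± 7.04 in sham kidneys (SD, n = 4 each). miR-129-1-3p and miR-7a-1-3p, the partner strand of miR-7a-5p from the locus in Hnrnpk, were also detected on all 8. miR-129-1-3p was at 8.69 ± 0.635 in nephrectomized and 7.80 ± 0.427 in sham kidneys. miR-7a-1-3p was at 3.24 ± 0.795 and 3.36 ± 0.297, where the negative control spots averaged 2.14 to 2.89 and 1.71 to 2.41. miR-9a-3p, the partner strand of miR-9a-5p, was detected in 0 of 4 nephrectomized and 3 of 4 sham kidneys. Its signal was 5.91, 3.01, 3.50 and 3.50 in the nephrectomized kidneys, against 3.84, 5.47, 5.78 and 6.80 in the sham kidneys, so the groups overlapped. Fewer miRNAs of any kind were detected on the nephrectomized arrays (224 to 230, against 242 to 253), and this split was not tested. Of the 5 that were tested, none passed at an adjusted p under 0.05, 1 passed unadjusted, beside 20.2% of all tested miRNAs (miR-129-1-3p, log2 difference 0.16 ± 0.064, adjusted p = 0.217), and their median difference was -0.053.

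**Figure D4:**
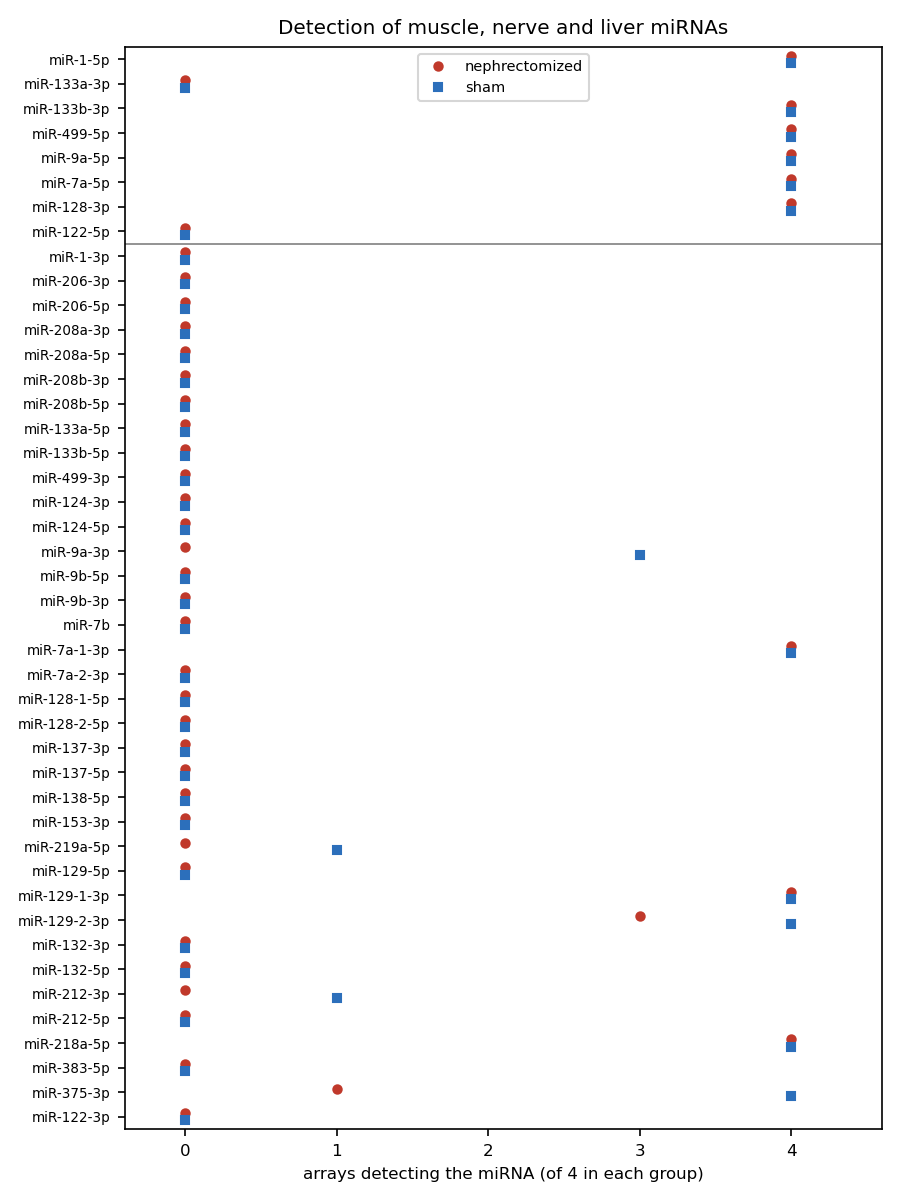
Number of arrays, of 4 nephrectomized (circles) and 4 sham (squares), that detected each miRNA, for the 8 miRNAs of the set above the line and the 36 others of muscle, nerve and liver below it. In the set 6 are at 4 of 4 in both groups and 2 at 0; among the others 28 are at 0 in both groups.

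Within the groups, 3 of the miRNAs varied together. After the mean of each group was subtracted, miR-499-5p and miR-7a-5p correlated over the 8 kidneys with Pearson's r of 0.90 and Spearman's rho of 0.83, miR-499-5p and miR-9a-5p with 0.86 and 0.69, and miR-9a-5p and miR-7a-5p with 0.80 and 0.62. Without the 2 kidneys farthest from the median of the first miRNA of a pair, r was 0.71, 0.63 and 0.89. These are descriptions, chosen after seeing the data among 15 pairs, and the points share the array and its scaling. Among the muscle miRNAs r was 0.16 between miR-1-5p and miR-133b-3p, -0.12 between miR-1-5p and miR-499-5p and 0.32 between miR-133b-3p and miR-499-5p. Without 2 kidneys chosen in the same way these became 0.31, -0.064 and -0.77, so the last rests on nephrectomized kidneys 1 and 4.

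The mean deviation of the 3 miRNAs was 0.30, -0.26, 0.12 and -0.17 in nephrectomized kidneys 1 to 4, and -0.12, -0.046, -0.086 and 0.26 in sham kidneys 1 to 4. Nephrectomized kidney 1 and sham kidney 4 were the highest of their groups and nephrectomized kidney 2 the lowest of all. The longest probes of all 3 have a GC content under 40%. The median deviation of 34 other tested miRNAs with such probes was 0.040, 0.0061, 0.029 and -0.092 in nephrectomized kidneys and -0.037, 0.013, -0.031 and 0.013 in sham kidneys, also highest in nephrectomized kidney 1 and, nearly equal, in sham kidneys 2 and 4, but smaller in size. Over the other 198 it was -0.056, 0.045, 0.040 and -0.027 in nephrectomized and 0.0065, 0.018, -0.043 and 0.020 in sham kidneys. The part of probe composition in the shared variation was not tested.

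**Figure D5:**
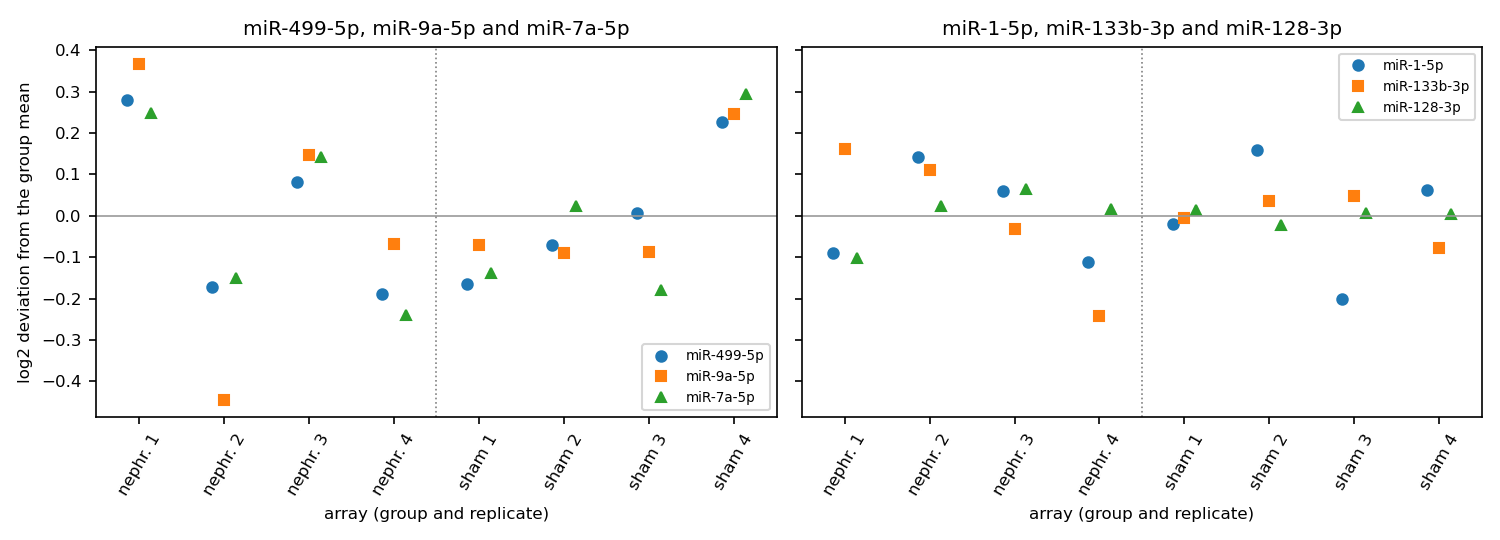
Deviation of the log2 level from the mean of its group in each of the 8 kidneys, nephrectomized left and sham right of the dotted line, for 2 sets of 3 miRNAs. On the left, miR-499-5p, miR-9a-5p and miR-7a-5p are all highest in nephrectomized kidney 1 and sham kidney 4 within their groups; on the right, miR-1-5p, miR-133b-3p and miR-128-3p do not move together.

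Of the tested miRNAs, miR-375-3p followed the mean deviation of these 3 most closely, with r = 0.94, where r ran from -0.81 to 0.94 over the other 235 tested miRNAs. This is a description: the 3 were chosen after seeing the data, and miR-375-3p is the highest of 235 candidates over 8 kidneys. miR-375-3p is made in pancreatic islets and other neuroendocrine cells. Its signal was 6.57, 0.796, 3.14 and 2.02 in the nephrectomized kidneys, against 2.59, 3.42, 4.94 and 18.5 in the sham kidneys, so that the highest kidney of each group was the same as for miR-499-5p, miR-9a-5p and miR-7a-5p. It was detected in 1 of 4 nephrectomized and 4 of 4 sham kidneys. The values of nephrectomized kidneys 2, 3 and 4 lay near the negative control spots, and the lowest was raised to 1 before log2 was taken, so the correlation rests partly on values at background and no size of difference is given. Its adjusted p was 0.432.

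For markers of kidney cells, r with the 3 took both signs, within the range of -0.81 to 0.94 over the other 235 tested miRNAs. Over the 6 tested tubule miRNAs, r with the mean deviation ran from -0.52 (miR-192-5p) to 0.83 (miR-204-5p), with 3 above 0. miR-204-5p had 42.5, 37.8, 41.3 and 38.2 in the nephrectomized kidneys, against 41.5, 39.9, 43.3 and 51.3 in the sham kidneys. Over the 2 endothelial miRNAs r was -0.77 and 0.13, over the 3 tested leukocyte miRNAs it ran from -0.64 to 0.081, over the 4 of smooth muscle and fibroblasts from -0.44 to 0.17, and for miR-451-5p of red cells it was -0.086. The part of these cells in the shared variation was not tested.

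By the same measure, each of the 6 tested miRNAs was set against the 237 others over the 8 kidneys. Closest to miR-1-5p were miR-149-5p and miR-181c-5p (r = 0.97 for both), and closest to miR-133b-3p were miR-542-3p (0.89) and miR-497-5p (0.84). miR-499-5p was closest to miR-20a-5p (0.94) and miR-96-5p (0.93), and miR-7a-5p to miR-17-5p (0.97) and miR-326-3p (0.94). miR-9a-5p was closest to miR-375-3p (0.90) and miR-363-3p (0.90), and miR-128-3p to miR-99b-5p (0.93) and miR-181b-5p (0.93). With 237 candidates and 8 kidneys a high r is easily found, and these are descriptions.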

How the data were processed

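RNA was labelled with Cy3 and hybridised to Agilent rat miRNA arrays, per the labels' protocols. Per the file headers, the deposited scanner tables hold linear intensity values from Agilent Feature Extraction 12.0.3.1, and background had been subtracted from the intensity used here, which can be below 0. Other deposited columns are flags (detected, well above background, outlier, saturated). The deposited value table holds log2 values centred on each miRNA, with an array shift whose rule is unknown, and was used only as an alternative.

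Outlier spots (8.10% to 9.01% per array) were left out, and no spot was saturated. Spots were averaged per probe and probes per miRNA, and arrays were scaled by their 75th percentile over 214 miRNAs detected on all 8 arrays. Values below 1 were raised to 1 before log2 was taken. The 238 miRNAs detected on at least 4 arrays were tested with limma 3.58.1 in R 4.3.3 (lmFit and eBayes, group only, two-sided, Benjamini-Hochberg over all 238, threshold 0.05), after a test on simulated data. Of the set, 6 of 8 passed this filter and all 8 are described. The number of arrays limits the precision. All 8 miRNAs are named, and beside each tested one the 2 most correlated of the tested miRNAs. Members and lists were chosen with earlier results of these data known. Same-numbered replicates did not pair: their deviations correlated at 0.042, -0.091, 0.28 and -0.24. Nothing in the labels ties a sample to a named animal, so p-values measure the spread between these samples, which may in part be technical. Alternatives were other scalings, background correction, probe summaries, floors, filters, variance model, the deposited log2 table, a replicate block and leaving out each array.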

Additional observations from a re-analysis of the deposited data

Results flagged for a closer look

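In a group of 4, a kidney was singled out where its gap to the nearest of the others, divided by the range of the group, passed Dixon's 95% critical value. Over the 8 miRNAs of the set and the 8 detected others of muscle, nerve and liver, 32 groups were searched, of which chance gives about 1 in 20, or 1.6, and 3 passed. miR-9a-5p in sham kidney 4 had a log2 level of 3.28, with the other 3 sham kidneys between 2.94 and 2.96. miR-9a-3p in nephrectomized kidney 1 had a scaled signal of 5.91, with the others between 3.01 and 3.50, although it was not called detected there. miR-129-2-3p in nephrectomized kidney 4 had a log2 level of 2.41, with the others between 2.78 and 2.85.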

How the results depend on the processing

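Over 25 alternatives for each of the 6 tested miRNAs, 129 of 150 values kept their sign and stayed outside the threshold, 6 passed it with the same sign, and 15 changed sign, 3 of them while called. The number of called miRNAs, 0 of 238, was 19 with the 75th percentile over all miRNAs, 161 without scaling and 156 with normexp, settings that moved the median difference of all miRNAs to -0.11, -0.29 and 0.13. It was 1 with quantile normalization, with labelling spike-ins and for miRNAs detected on all 8 arrays, 5 with the longest probe and with the deposited table, 7 with Feature Extraction's sum of probes and with trend and robust fitting, 27 with the shorter probes, and 0 to 5 leaving out 1 array, with 1 without nephrectomized replicate 1 and 5 without nephrectomized replicate 3. With the replicate block it stayed at 0, and no call changed.

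Scaling applies 1 factor per array, so leaving it out moved every miRNA above the floor alike. The median difference of all miRNAs was then -0.29, and 161 of 238 were called. Without scaling miR-1-5p was at -0.086 and miR-133b-3p at -0.14, above that median. miR-499-5p at -0.40, miR-9a-5p at -0.52 and miR-7a-5p at -0.39 were below it and were called (adjusted p = 0.0446, 0.0406 and 0.0446). With scaling these 3 were at -0.12, -0.24 and -0.10. With normexp, an offset of 50 was added to every spot before scaling. The mean scaled signal of the 6 ran from 7.07 (miR-9a-5p, nephrectomized) to 40.8 (miR-499-5p, sham). In that setting miR-1-5p at 0.20, miR-133b-3p at 0.19 and miR-128-3p at 0.12 were called (adjusted p = 0.00316, 0.00304 and 0.0192). So were miR-9a-5p at 0.16 (adjusted p = 0.00481) and miR-7a-5p at 0.16 (adjusted p = 0.00575), with the sign changed, and miR-499-5p was at 0.045. The median difference of all miRNAs was then 0.13. The part of the offset in these values was not tested. miR-128-3p, at 0.00045, turned to -0.10 (75th percentile over all miRNAs), -0.029 (median) and -0.28 (no scaling, adjusted p = 0.0114). These settings change only the factor of each array, and the median difference of all miRNAs was -0.11, -0.037 and -0.29 in them. miR-128-3p was also at -0.015 (quantile), -0.013 (shorter probe) and -0.043 (deposited table). It ran from -0.021 to 0.035 when 1 array was left out, below 0 in 4 of the 8 fits. The cause of these other changes was not tested. The fit without a filter was set aside, since most miRNAs lie at the floor with no variance. The slide could not be used as a block, since there was 1 slide. Signal near background limits miR-9a-5p, miR-133a-3p and miR-122-5p, and 4 arrays a group limit all intervals.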
